A study of Homo sapiens with 8 samples.

Results

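Ribosome footprints on 37 genes were followed, namely 19 genes of cytosolic aminoacyl-tRNA synthetases, the 2 scaffold genes AIMP1 and AIMP2, and 16 genes of mitochondrial synthetases. They were taken by name from the 20165 gene regions of the count files, after the transcript identifiers of each region had been matched to gene symbols, and all 37 were found. Ribosome profiling (Ribo-seq) sequences the pieces of mRNA that ribosomes shield from RNase, so a count on a coding sequence follows both the amount of an mRNA and the number of ribosomes on it. With footprints alone these 2 quantities cannot be told apart.

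The 8 libraries came from OVCAR3, an established human ovarian cancer cell line, and form 4 groups of 2. RACK1-WT and RACK1-Mut cells were transduced with lentiviruses, so that 1 µg/ml doxycycline for 48 h both silenced the cells' own RACK1, a protein of the small ribosomal subunit, and switched on HA-tagged RACK1. The re-expressed RACK1 was wild type in the former group and had its sites of mono-ADP-ribosylation (MARylation) mutated in the latter. siControl and siTARG1 cells were plain OVCAR3 cells transfected for 48 h with 30 nM of a control siRNA or of siRNA against OARD1, the gene of the ADP-ribose hydrolase TARG1. The comparisons ask how footprints change when RACK1 cannot be MARylated and when the enzyme that removes the mark is depleted.

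An aminoacyl-tRNA synthetase attaches an amino acid to its tRNA, and charged tRNA is needed in both compartments that make protein, the cytosol and the mitochondria. The cytosolic enzymes serve ribosomes in the cytoplasm. The mitochondrial ones are made in the cytoplasm from separate nuclear genes, whose names end in 2, and are imported. GARS1 and KARS1 are exceptions, since 1 gene gives the enzyme of both compartments. Mitochondria have no glutamine enzyme of their own, and EARS2 and the GATB, GATC and QRSL1 amidotransferase make their glutamine tRNA instead. EPRS1, IARS1, LARS1, MARS1, QARS1, RARS1 and KARS1 are held with scaffold proteins such as AIMP1 and AIMP2 in the multisynthetase complex. Uncharged tRNA activates the kinase GCN2, and the transcription factor ATF4 then raises the transcription of many cytosolic synthetase genes through a composite C/EBP-ATF element.

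Promoter sequences show which members carry that element. In the RefSeq promoters (GRCh38.p14, 250 bases before to 50 after each start), 32 of the 37 genes had an entry. LARS1, VARS1, YARS1, AARS2 and VARS2 are named only. TGATGNAA, searched on both strands, was present in 8 of these 32 genes. It was found in 7 of 16 cytosolic genes (43.8%), in 0 of 2 scaffold genes and in 1 of 14 mitochondrial genes (7.14%), beside 4.46% of all genes with a promoter and 3.62% of all promoters. All 7 cytosolic carriers are among the 13 synthetases known as ATF4 targets. The windows of 30 bases below are written 5′ to 3′ on the strand of the gene, and the capitals mark the element, which read TGATGNAA on that strand in NARS1 and YARS2 and on the opposite strand in the other 6 genes.
NARS1 (chr18:57621804-57621833, minus strand, after the start): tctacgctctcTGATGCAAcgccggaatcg
GARS1 (chr7:30594834-30594863, plus strand, before the start): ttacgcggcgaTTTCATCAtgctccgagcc
AARS1 (chr16:70289675-70289704, minus strand, before the start): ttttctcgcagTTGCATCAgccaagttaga
IARS1 (chr9:92293692-92293721, minus strand, before the start): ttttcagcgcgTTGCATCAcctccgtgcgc
CARS1 (chr11:3057407-3057436, minus strand, across the start): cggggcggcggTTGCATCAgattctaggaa
MARS1 (chr12:57488053-57488082, plus strand, across the start): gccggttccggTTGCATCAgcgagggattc
TARS1 (chr5:33440956-33440985, plus strand, after the start): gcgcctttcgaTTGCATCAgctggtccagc
YARS2 (chr12:32756076-32756105, minus strand, before the start): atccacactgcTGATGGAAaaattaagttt
A match describes the letters of the window. It does not show that a factor was bound there, and only 4 of the 8 genes had the element wholly before the start.

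The libraries held between 3100947 and 6604190 coding footprints. OARD1 averaged 6.29 normalized counts in siTARG1 cells and 95.2 in siControl cells. RACK1, whose counts mix the re-expressed and the remaining endogenous mRNA, averaged 17510 with the mutant and 23460 with the wild type. It was itself called lower with the mutant (log2 fold change -0.42, DESeq2 adjusted p 1.34e-08) and in siTARG1 cells (-0.25, adjusted p 0.00297). RACK1-Mut and RACK1-WT cells thus differed in RACK1 footprints as well as in its sites, and the part of each was not tested. Of 11 epithelial ovarian markers, 10 were present in every library (MUC16 at 4958 counts or more, PAX8 at 1145 or more). CLDN4 could not be counted, since its regions were listed with a coding length of 0. The leukocyte genes PTPRC and CD3E and the liver gene ALB reached at most 2 counts in a library, CD3E being listed at 0 throughout. The endothelial gene VWF reached 15 counts, while PECAM1, also endothelial, matched no region. The fibroblast genes COL1A1 and COL1A2 reached 231 and 34.

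Cytosolic synthetases carried more footprints per length than mitochondrial ones. The level used here is the number of coding footprints per kilobase of coding sequence, scaled to the same total of coding footprints in each library as in RPKM. Over the 8 libraries the mean level of a cytosolic gene ranged from 30.6 (CARS1, the cysteine enzyme) to 192 (MARS1, the methionine enzyme), with a median of 94.7. For mitochondrial genes the range was 3.50 (VARS2, valine) to 59.3 (SARS2, serine), with a median of 20.9. The median level over the 12955 genes with enough counts was 16.2, and 19 of 19 cytosolic but 9 of 16 mitochondrial genes lay above it. The scaffold genes AIMP1 and AIMP2 were at 86.2 and 185.

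**Figure D1:**
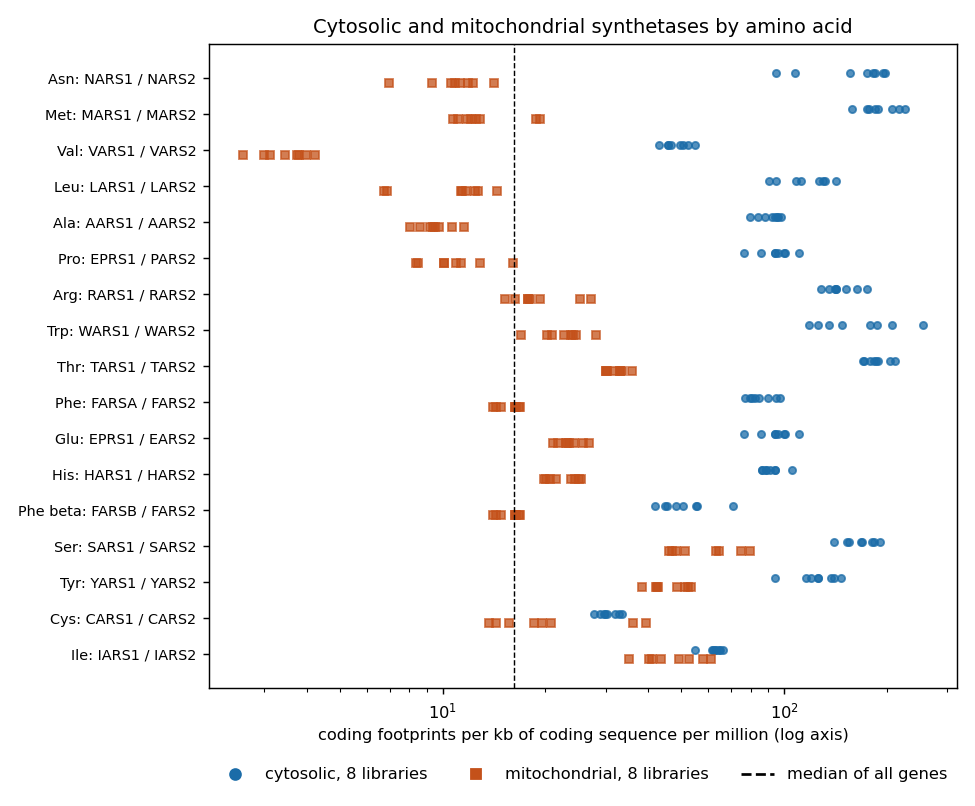
Level of each cytosolic synthetase (circles) and of its mitochondrial counterpart (squares) in each of the 8 libraries, in scaled coding footprints per kilobase on a log axis. The dashed line is the median of all genes, 16.2. Pairs are ordered by their ratio, and the pairs for isoleucine and cysteine lie closest together.

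The gap differed from one amino acid to the next. NARS1 stood above NARS2 (asparagine) by a median ratio of 15.7 over the 8 libraries, with a range of 9.57 to 22.3. The ratio of MARS1 to MARS2 had a median of 14.8 and ranged from 11.3 to 18.7. These were the widest gaps among the amino acids compared. At the other end, IARS1 exceeded IARS2 (isoleucine) by a median ratio of only 1.32, with a range of 1.09 to 1.80. CARS1 over CARS2 had a median ratio of 1.57. Its range of 0.809 to 2.08 crossed equality, and in the plot of levels by amino acid both libraries with CARS2 above CARS1 are siTARG1 libraries. For phenylalanine the cytosolic enzyme is made of FARSA and FARSB subunits, and FARSA was at 85.7 and FARSB at 51.5, against 15.7 for FARS2. The region of SARS2 also takes in transcripts of FBXO17 and of a readthrough gene, so its level is uncertain. That of VARS2 shares 99.2% of its 28-base stretches with another annotated gene.

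Summed over the members, footprints lay almost wholly in coding sequence. Footprints in the 5′ UTR made up 0.676% to 0.882% of those of the cytosolic genes in the 4 groups and 0.740% to 1.04% of those of the mitochondrial genes. The corresponding share over all genes was 3.91% to 4.18%. Single members differed widely, from 0% for YARS2 to 6.17% for NARS2 in RACK1-WT cells, the latter from 14 footprints in the 5′ UTR. WARS1 was at 4.01% in siTARG1 cells and 2.94% in siControl cells.

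In siTARG1 cells, 11 of the 37 genes were called at an adjusted p under 0.05 (DESeq2, adjusted over all genes tested), 9 lower and 2 higher than in siControl cells. Of all 12056 genes tested, 16.4% were called, 9.19% lower and 7.18% higher. The cytosolic genes gave 7 lower and 0 higher calls among 19 (NARS1, FARSB, GARS1, WARS1, KARS1, EPRS1, RARS1). The scaffolds gave 1 lower call, AIMP2. The mitochondrial genes gave 2 higher calls, CARS2 and LARS2, and 1 lower, RARS2, among 16. The median log2 fold change was -0.07 for the cytosolic genes and 0.12 for the mitochondrial genes, beside 0.00 over all genes tested. Groups that did not overlap were common in this comparison, at 62.6% of all genes tested, so that by itself sets no member apart. In this comparison the epithelial markers changed too, with CDH1 at a log2 fold change of 1.64, KRT18 at -1.24 and KRT8 at -1.03 among 2 markers called higher and 5 called lower. Their part in the changes of the synthetases was not tested.

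**Figure D2:**
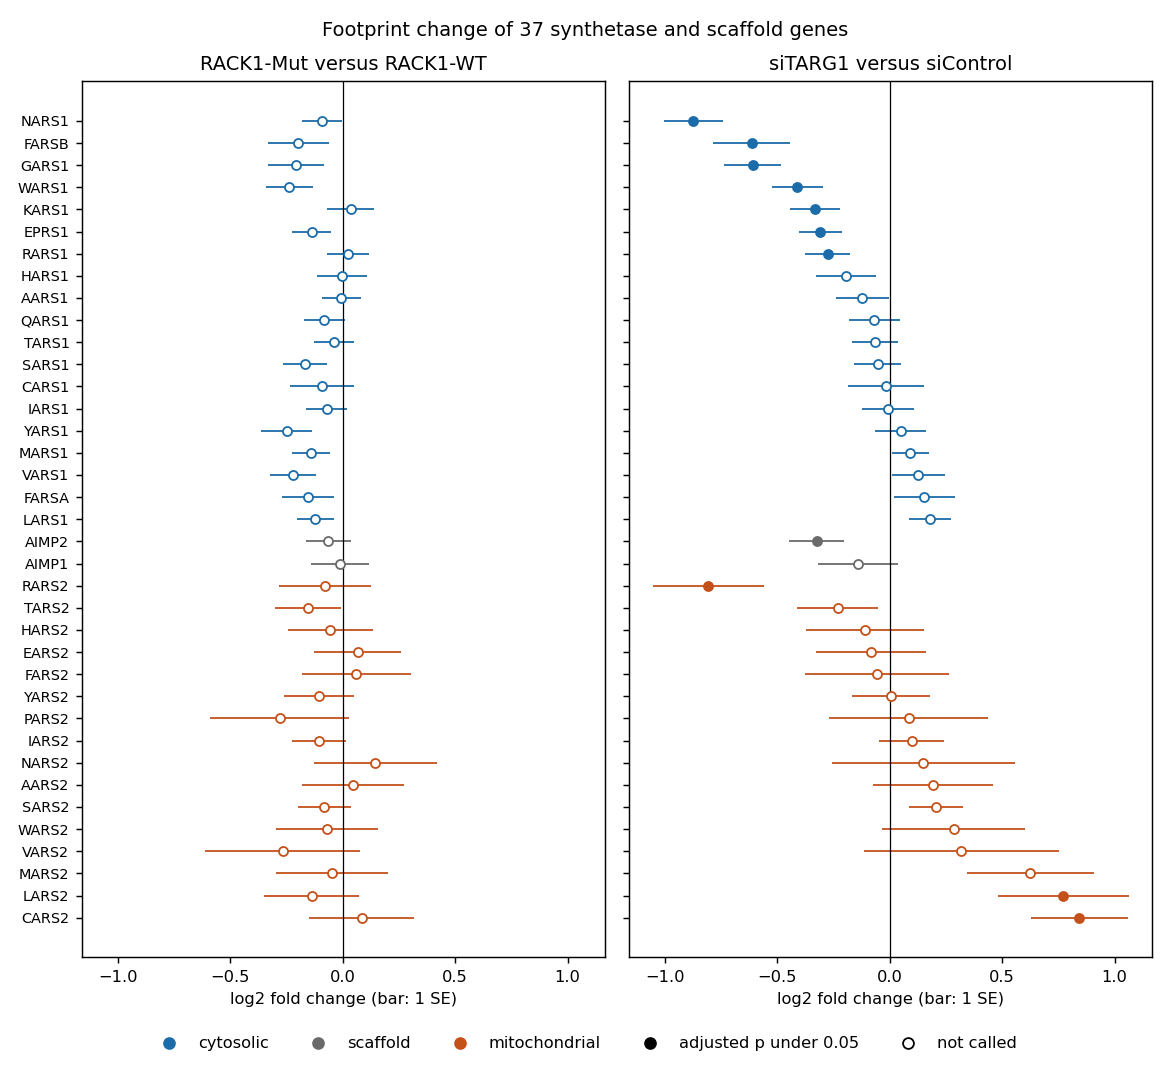
Log2 fold change of coding footprints of the 37 genes in RACK1-Mut versus RACK1-WT cells (left) and in siTARG1 versus siControl cells (right), with bars of 1 standard error and filled symbols for an adjusted p under 0.05. The 11 filled symbols are all on the right. The cytosolic genes are mostly left of 0 in both panels, while the mitochondrial genes in the right panel reach from -0.81 to 0.84.

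NARS1, which charges asparagine tRNA (chr18:55267888-55289445 of GRCh37, the build of all gene positions below, minus strand), fell furthest. It had 623 and 552 normalized counts in the siTARG1 libraries and 1204 and 948 in the siControl libraries. Each siTARG1 library was thus well below both controls, which gave a log2 fold change of -0.87 ± 0.130 (SE) and a DESeq2 adjusted p of 1.10e-09. Its mitochondrial counterpart NARS2, with 56.6 and 47.2 against 56.2 and 36.95, had overlapping groups (log2 fold change 0.15, SE 0.407).

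FARSB, the beta subunit of the phenylalanine enzyme (chr2:223431618-223520811, minus strand), had 260 and 280 normalized counts in siTARG1 cells and 364 and 464 in siControl cells. The groups did not overlap, and FARSB fell by 0.61 on the log2 scale (SE 0.171) at a DESeq2 adjusted p of 0.00352. The alpha subunit was not called. FARSA had 508 and 524 counts against 476 and 449, and its value of 0.15 on the log2 scale (SE 0.134) had an adjusted p of 0.503. Whether the subunits differed from each other was not tested.

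GARS1, which makes the glycine enzyme of both compartments (chr7:30620149-30673649, plus strand), had 479 and 448 normalized counts in siTARG1 cells against 745 and 670.0 in siControl cells. All values under knockdown were lower, a fall of log2 -0.61 (SE 0.129) at a DESeq2 adjusted p of 4.23e-05. KARS1, the lysine enzyme of both compartments (chr16:75661372-75682541, minus strand), had 688 and 725 counts against 925 and 851. It fell by less, by log2 -0.33 (SE 0.112), at an adjusted p of 0.0218. WARS1, the tryptophan enzyme, which interferon induces (chr14:100800127-100843142, minus strand) had 929 and 896 counts against 1339 and 1085. Its siControl libraries differed more from each other than its siTARG1 libraries did, and its change was -0.41 on the log2 scale (SE 0.114), at an adjusted p of 0.00339.

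Of the 9 genes of the multisynthetase complex, 4 fell, 0 rose and 5 did not pass the test, with a median log2 fold change of -0.14. Besides KARS1 the genes that fell were EPRS1, the fused glutamate and proline enzyme, RARS1, the arginine enzyme, and the scaffold AIMP2. All 4 calls were lost when any one siTARG1 or siControl library was left out, as were most calls over all genes. Over all genes tested, 9.19% were called lower. EPRS1 (chr1:220141942-220219872, minus strand) had 1213 and 1373 normalized counts against 1615 and 1582 in siControl cells (log2 fold change -0.31, SE 0.0944, DESeq2 adjusted p 0.00951). RARS1 (chr5:167913456-167946306, plus strand) had 983 and 1065 against 1197 and 1284 (-0.28, SE 0.0999, adjusted p 0.0348). AIMP2 (chr7:6048886-6063465, plus strand) had 543 and 544 against 684 and 678 (-0.33, SE 0.121, adjusted p 0.0426). None of these 3 genes had overlapping groups. Within the same complex LARS1, the leucine enzyme, had 1384 and 1356 counts against 1239 and 1181, higher in both libraries, but its log2 fold change of 0.18 (SE 0.0922) missed the threshold at an adjusted p of 0.187.

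**Figure D3:**
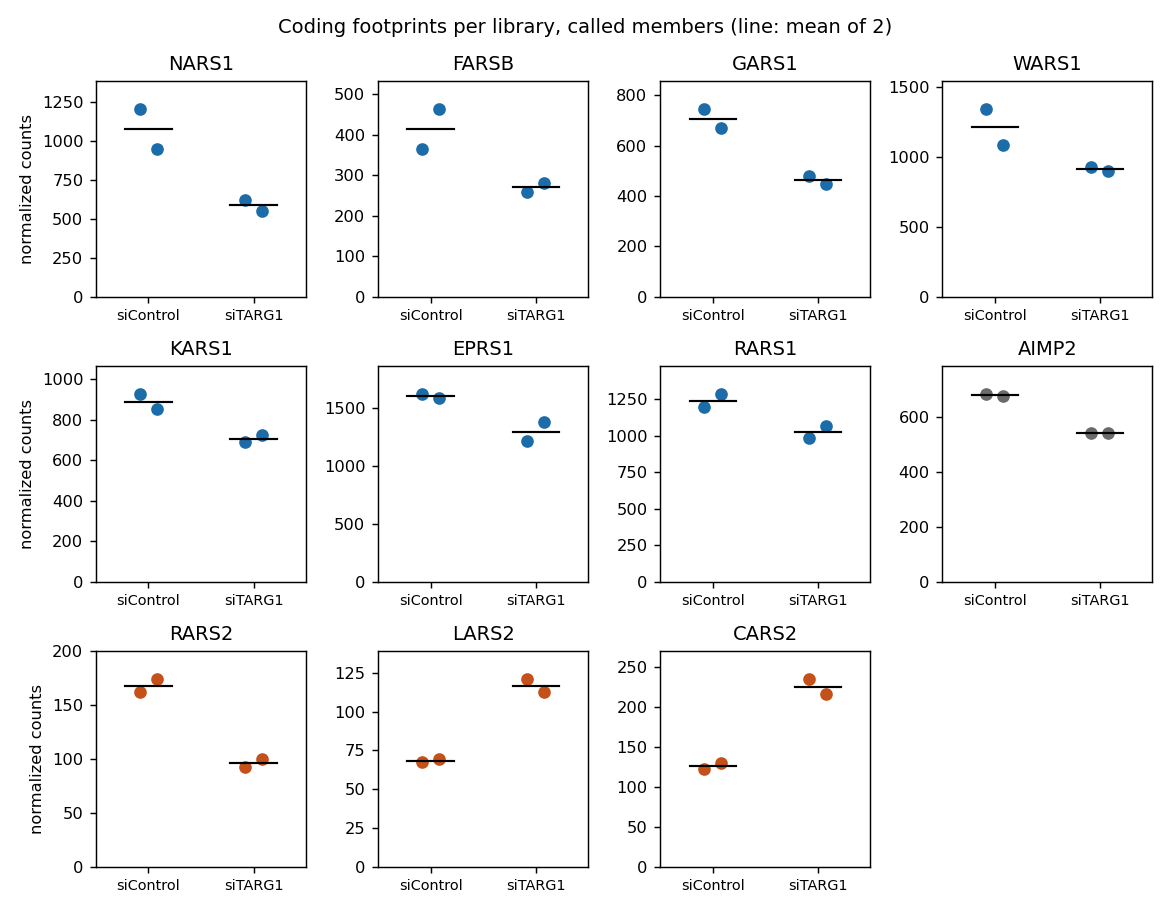
Normalized coding footprint counts of the 11 called genes in each siControl and siTARG1 library, on axes that start at 0, with a line at the mean of 2 libraries. In each panel both siTARG1 points lie on the same side of both siControl points, below them in 9 panels and above them for LARS2 and CARS2.

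Among the mitochondrial enzymes, CARS2 (cysteine, chr13:111293759-111365950, minus strand) rose most. It had 235 and 216 normalized counts in siTARG1 cells and 122 and 129.9 in siControl cells, a rise of 0.84 on the log2 scale (SE 0.216) that passed at a DESeq2 adjusted p of 0.00124. Cytosolic CARS1 was nearly level, with 280 and 296 against 280 and 303 counts (log2 fold change -0.02, SE 0.170). LARS2 (leucine, chr3:45430053-45596218, plus strand) had 121 and 112 against 67.7 and 69.1 counts, which do not overlap. Its log2 fold change was 0.77 (SE 0.291), and its adjusted p of 0.0466 lay close to the threshold.

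RARS2 (arginine, chr6:88223177-88299746, minus strand) moved the other way, with 92.4 and 100.1 normalized counts in siTARG1 cells against 163 and 174 in siControl cells. On the log2 scale the change was -0.81 (SE 0.246), at a DESeq2 adjusted p of 0.00910, and arginine was the amino acid with a separate gene for each compartment for which both genes were called, although neither call was kept when a library was left out. MARS2 (methionine) had 117 and 122 counts against 73.0 and 82.2 (0.63, SE 0.282, adjusted p 0.117). SARS2, with its merged region, had 684 and 652 against 574 and 586 (0.21, SE 0.121, adjusted p 0.264). AARS2 (alanine) had 120 and 111 against 100.2 and 102 (0.19, SE 0.267, adjusted p 0.711). All 3 were higher in both siTARG1 libraries, but none was called, except that edgeR and the fit of all 8 libraries called MARS2. HARS1 and HARS2, neighbouring genes of the cytosolic and mitochondrial histidine enzymes on chromosome 5 that shared no 28-base stretch of coding sequence, were at log2 fold changes of -0.19 (SE 0.133) and -0.11 (SE 0.262), both below 0 but not called.

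Summed over genes, the mitochondrial synthetases took 0.0823% and 0.0809% of coding footprints in the siTARG1 libraries and 0.0705% and 0.0727% in the siControl libraries. The siTARG1 shares were above those of all the other 6 libraries, which ranged from 0.0690% to 0.0736%. These include the RACK1 libraries, which come from a separate experiment with other cells and treatment and are only set beside the siRNA libraries. The cytosolic synthetases took 0.470% and 0.463% in siTARG1 cells against 0.512% and 0.470% in siControl cells, with the lower control close to the siTARG1 libraries. The ratio of the cytosolic to the mitochondrial sum was 5.72 in both siTARG1 libraries and between 6.43 and 7.27 in the other 6. Without SARS2, whose merged region gave 429 to 822 counts of the sum in a library, the mitochondrial share was 0.0628% and 0.0624% in siTARG1 cells, 0.0550% and 0.0568% in siControl cells and up to 0.0620% in RACK1-WT replicate 1, so that most of the gap to the RACK1 libraries was gone. The ratio of the cytosolic sum to this smaller sum was 7.495 and 7.41 in siTARG1 cells and 9.32 and 8.26 in siControl cells. In the RACK1 libraries it was 7.64 to 7.975. The sum without SARS2 was chosen after seeing the data.

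**Figure D4:**
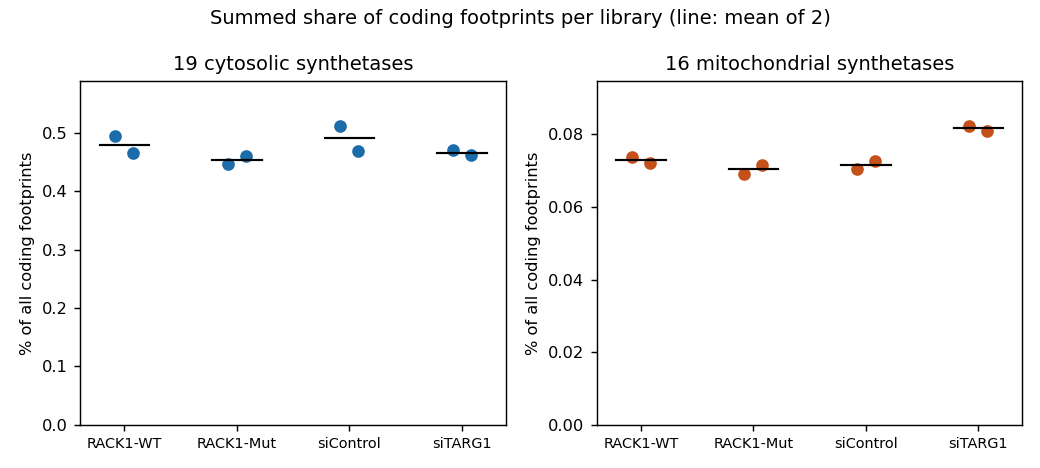
Share of all coding footprints on the 19 cytosolic (left) and 16 mitochondrial (right) synthetase genes, in percent, for each of the 8 libraries, with a line at the mean of each group of 2. The axes start at 0 and differ in scale. The siTARG1 points are the highest for the mitochondrial genes, at 0.0823% and 0.0809%. The RACK1 libraries come from a separate experiment.

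Of all genes tested in siTARG1 cells, 9.19% were called lower and 7.18% higher. Of the 13 synthetases known as ATF4 targets, 4 fell in siTARG1 cells (NARS1, GARS1, WARS1 and EPRS1), 0 rose and 9 were not called. Their median log2 fold change was -0.05. Of the 6 other cytosolic genes, 3 fell (FARSB, KARS1 and RARS1) and 0 rose, with a median of -0.24. Of the cytosolic genes whose promoter sequence is printed above, 2 of 7 fell (NARS1 and GARS1), with a median of -0.07. Of the 9 with a promoter entry but without the element, 5 fell, with a median of -0.28. ATF4 itself, named after its values were seen, had 514 and 500.4 normalized counts in siTARG1 cells against 380 and 334, higher by 0.51 on the log2 scale (SE 0.145) at an adjusted p of 0.00494, the opposite direction to the synthetases that fell. Other ATF4 targets went in both directions. Of 28 tested, 6 rose and 4 fell, with a median of 0.16. EIF4EBP1, a repressor of translation initiation, fell by 2.01 on the log2 scale (adjusted p 5.97e-34) and PSAT1, of serine synthesis, fell by 1.45 (1.49e-25). SLC3A2, a subunit of amino acid transporters, rose by 0.50 (9.43e-06), and SESN2, a leucine sensor, rose by 1.26 (6.01e-05).

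Among 18 tested genes that act with tRNA charging, 2 rose and 0 fell, where 7.18% of all genes rose. XPOT, which exports tRNA from the nucleus, had a log2 fold change of 0.52 (adjusted p 7.24e-04). EIF2AK4, the gene of GCN2, had 176 and 184 normalized counts against 94.9 and 94.2 (0.93, adjusted p 0.00148). TUFM and GCN1, at 0.18 each, were not called. Among 11 mitochondrial translation factors 1 rose, GFM1, an elongation factor (0.39, adjusted p 0.00795), and 0 fell, a share near that of all genes. TSFM (0.38), TUFM and LRPPRC (0.14) were not called. As with SARS2, the regions of EEF1E1, AARSD1, DTD2, GATC and TSFM also take in transcripts of other genes. The values of these genes are uncertain in both comparisons.

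Some of the genes that fell in siTARG1 cells hold the 7-base words TGAACAT or GAACATA in their annotated 3′ UTR, and these words were chosen because earlier results of these data singled them out. Their excess among genes called lower was fixed by that choice and is not an independent observation. They were present in any listed transcript of 38.9% of 1097 genes called lower and of 18.1% of 9929 genes not called. Of the 9 members called lower, 2 held one, NARS1 and FARSB. Of the 26 members not called, 5 held one (AIMP1, HARS2, IARS1, IARS2 and LARS1), which is a similar share. The sites in the members that fell are printed 5′ to 3′ on the strand of the gene (GRCh37), with the word in capitals.
NARS1 (chr18:55268715-55268743, minus strand): ctcaaatcaccTGAACATcaagtgatatt
NARS1 (chr18:55268218-55268246, minus strand): atttgaagtaaGAACATAattttggggag
FARSB (chr2:223435872-223435900, minus strand): tcaatgcagtaTGAACATtaggaaacaat
The words TGAATAT and GAATATA, chosen in the same way and held by 49.4% of 857 genes called higher, 25.9% of those called lower and 24.4% of those not called, were in neither of the 2 members that rose. Whether any of these words bears on the changes was not tested.

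With 2 libraries a group, leaving out any one siTARG1 or siControl library left 1 library in that group. Most of the 11 calls were then lost, as were most calls over all genes, though all 11 genes kept their direction. NARS1 stayed called each time. FARSB was the other call without siControl replicate 1 and GARS1 was called in the remaining 3 cases, together with WARS1 without siControl replicate 2.

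In RACK1-Mut cells none of the 37 genes was called against RACK1-WT (0 of 37, each with a DESeq2 adjusted p of 1.00), where 0.0799% of the 12520 genes tested were called. At an unadjusted p under 0.05 there were 3 members by DESeq2, YARS1, WARS1 and VARS1, beside 205 of all 12520 genes tested. By edgeR there were 6 such members, without a count over all genes to set beside them. After adjustment edgeR called 0 members, where it called 0.24% of all genes tested. Most values were below 0. A log2 fold change below 0 was found for 17 of 19 cytosolic, 2 of 2 scaffold and 11 of 16 mitochondrial genes, whereas 49.6% of all genes tested were above 0. The medians were -0.12 for the cytosolic and -0.07 for the mitochondrial genes, beside 0.00 over all genes. Both RACK1-Mut libraries were below both RACK1-WT libraries for 14 of the 19 cytosolic genes, a pattern that 18.9% of all genes tested showed. All the genes share these 4 libraries, so their directions are not independent observations.

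YARS1, the tyrosine enzyme (chr1:33240838-33283632, minus strand), had 744 and 923 normalized counts in RACK1-Mut cells and 1021 and 959 in RACK1-WT cells. Its log2 fold change was -0.25 (SE 0.115, unadjusted p 0.0299 by DESeq2). WARS1 had 836 and 889.9 against 1070 and 965 (-0.24, SE 0.105, unadjusted p 0.0226). VARS1, the valine enzyme (chr6:31745295-31763529, minus strand), had 811 and 870.0 against 960.0 and 998 (-0.22, SE 0.102, unadjusted p 0.0311). The groups did not overlap for these genes, and each gene was at 0.841 to 0.858 of its RACK1-WT level.

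GARS1 had 684 and 700.0 normalized counts in RACK1-Mut cells against 886 and 709, so that 1 RACK1-WT library was close to both mutant libraries (log2 fold change -0.21, SE 0.124). KARS1, with 1037 and 1048 against 1093 and 940, overlapped (0.04, SE 0.105). HARS1, with 691 and 660 against 691 and 664, was at 0.00 (SE 0.112), and HARS2 was at -0.06 (SE 0.190). The highest values among genes with enough counts were those of CARS2, with 156 and 116 against 124 and 134 (0.08, SE 0.233), of EARS2, the glutamate enzyme, with 190 and 181 against 168 and 186 (0.07, SE 0.194), and of FARS2, with 110 and 113 against 103 and 111 (0.06, SE 0.244). All 3 had overlapping groups.

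All 13 synthetases known as ATF4 targets had a log2 fold change below 0 in RACK1-Mut cells, from -0.25 for YARS1 to -0.01 for AARS1, with a median of -0.14. Without RACK1-WT replicate 1 these numbers were 11 of 13 and -0.06, and without either RACK1-Mut library 12 of 13 were below 0. The 6 other cytosolic genes had a median of -0.04. Among the 16 cytosolic genes with a promoter entry, the 7 with the element had a median of -0.09 and the 9 without it -0.14. LARS1, VARS1 and YARS1 had no entry and are in neither set. ATF4 itself had 395 and 409 normalized counts against 519 and 533 (log2 fold change -0.39, SE 0.130), lower but not called at an unadjusted p of 0.00268. Where 0.0799% of all genes tested were called, other ATF4 targets gave 1 call among 29, with a median of -0.17. That was SLC7A5, the leucine transporter subunit, with 1343 and 1589 normalized counts against 2163 and 2084 (log2 fold change -0.54, adjusted p 5.36e-05). PSAT1 (-0.35, adjusted p 0.0619), SHMT2 (-0.28) and SLC3A2 (-0.24) came next and were not called. Of the genes that act with tRNA charging 0 of 18 were called, with a median of 0.01, and of the mitochondrial translation factors 0 of 11, with a median of -0.01. Without RACK1-WT replicate 1, the library with most footprints, the median of the cytosolic synthetases was -0.06 and that of the mitochondrial ones -0.01.

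The difference between the comparisons was tested in a fit of all 8 libraries, as the log2 fold change in RACK1-Mut minus that in siTARG1 cells. It was called for 3 of the 37 members, where 12.3% of 12955 genes were called. For NARS1 the difference was 0.78 (SE 0.153, DESeq2 adjusted p 1.33e-05), the fall in siTARG1 cells being larger. For LARS2 it was -0.92 (SE 0.322, adjusted p 0.0339) and for LARS1 -0.31 (SE 0.110, adjusted p 0.0399), both lying higher in siTARG1 cells than in RACK1-Mut cells. The other 34 members, among them GARS1 (0.40, adjusted p 0.105) and CARS2 (-0.76, adjusted p 0.0535), were not called by DESeq2. By edgeR 11 of the 37 members were called, where edgeR called 2695 of the 12955 genes. They were these 3 and FARSB, GARS1, KARS1, RARS1, VARS1, CARS2, MARS2 and RARS2. The call of NARS1 was kept when any 1 of the 8 libraries was left out. That of LARS2 was lost without each of the 8 and that of LARS1 without each except RACK1-WT replicate 2.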

How the data were processed

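Footprints were recovered by the authors after RNase I digestion and ligated to a linker with a barcode and a unique molecular identifier; it is not stated whether reads sharing an identifier were merged. Per the methods and processing notes, reads of rRNA were removed with Bowtie 1.1.2 and the rest were aligned to transcripts of GRCh37 with TopHat2 2.1.1, many hits per read being allowed, so that near-identical genes can share reads. The deposited values are the authors' raw whole-number counts per gene region. The matched RNA-seq was not analysed here.

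Symbols came from GENCODE annotation, which named 97.3% of the regions. Coding counts were tested with DESeq2 1.42.0 (R 4.3.3), with group as the only term, for genes whose counts over the 4 libraries summed to 10 or more (over all 8 for the difference of the comparisons), and a gene was called when its p, adjusted by Benjamini-Hochberg, was under 0.05. The alternatives were edgeR 4.0.16 (quasi-likelihood, TMM), TMM factors, other count filters, exon counts, a fit of all libraries, a replicate block and leaving out each library. The code was tested on simulated data. Replicates, which the methods describe as independent biological samples, differed by more than sampling noise (chi-square per gene 1.69 to 3.13).

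The members and lists were chosen with earlier results of these data known. Members given with values were those called, the 3 largest rises and falls in each comparison among genes with a mean of at least 100 normalized counts, and GARS1, KARS1, HARS1, HARS2 and WARS1; of other lists, up to 4 genes of smallest p. NARS2, CARS1, FARSA, LARS1 and MARS2 were added after their values were seen.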

Additional observations from a re-analysis of the deposited data

How the results depend on the processing

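In siTARG1 cells the 11 calls were 10 to 12 under other tools, filters, exon counts and the fit of all 8 libraries. The count of 12 came from edgeR, which called 28.8% of all genes tested, and from the fit of all 8 libraries, which called 2747 of 12955 genes. LARS2 was lost without the count filter and without independent filtering (adjusted p 0.0594 and 0.0504), AIMP2 was lost with exon counts (0.0601), and MARS2 was gained with edgeR and in the fit of all libraries. With the replicate block 5 calls were kept, 4 lower and 1 higher, and EPRS1, KARS1, RARS1, AIMP2, LARS2 and RARS2 were lost. Over all genes the block called 1125 of 12056, where the main fit called 1974. The labels do not say whether same-numbered libraries were prepared together. Their deviations correlated by 0.0294 in the siRNA experiment and 0.0857 in the RACK1 experiment, and such values cannot settle whether they were paired. The block changed no call in RACK1-Mut cells, where 0 members were called under every setting. Leaving out 1 library left 2 to 3 calls in siTARG1 cells and 1 to 3 calls of the difference, for which edgeR called 11 and the minimum of 10 counts in every library called 4, CARS2 being gained.

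With 1 library left out, the median log2 fold change in siTARG1 cells ranged from -0.19 to -0.052 for the cytosolic, from 0.051 to 0.16 for the mitochondrial and from -0.14 to 0.033 for the ATF4-target synthetases. In RACK1-Mut cells the ranges were -0.15 to -0.057, -0.085 to -0.015 and -0.19 to -0.057, and the cytosolic median was -0.13 in the fit of all 8 libraries. Signs turned in RACK1-Mut cells for HARS1 (-0.038 to 0.029; above 0 without RACK1-WT replicate 1 or RACK1-Mut replicate 2), EARS2 (-0.0011 without RACK1-WT replicate 1, up to 0.14), KARS1 (-0.068 without RACK1-WT replicate 2, up to 0.15) and CARS2 (-0.15 without RACK1-Mut replicate 1, up to 0.28). Counting only bases before the start, 4 members held the promoter element. The cause of these shifts was not tested. Mitochondrial genes had fewer counts (VARS2 35 to 75 in a library), so their standard errors were larger, with a median of 0.264 against 0.114 for cytosolic genes in siTARG1 cells.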
